A study of Xenopus laevis with 27 samples.

Results

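Tadpoles in which Notch signaling had been activated were set against tadpoles in which it had been suppressed, at stage 38 of Xenopus laevis development. Embryos received 1.5 ng of capped RNA in 1 blastomere at the 2-cell stage. The RNA encoded the Notch intracellular domain (NICD, named ICD in the labels), which activates the pathway, or a form of Suppressor of Hairless that no longer binds DNA (DBM), which suppresses it. GFP RNA, injected the same way, served as tracer and injection control. All groups had thus been injected on 1 side, so that the total RNA of whole embryos came from cells with and without the construct. Each array held RNA of a pool of 10 embryos, and each construct had 3 arrays at stage 38. The comparison took the 3 NICD and the 3 DBM arrays of stage 38 out of the 27 arrays of the series, with the 3 GFP arrays beside them and stages 18 and 28 as earlier points. It covered every probe set with a single gene symbol, 15495 of the 32635 on the array, for 11303 symbols. Values were log2 signals, so a difference of 1 is a 2-fold change, and .L and .S mark the homeologous copies of a gene.

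Notch is a receptor that is cleaved when a neighboring cell presents a ligand of the Delta or Serrate/Jagged families. Its released intracellular domain enters the nucleus, binds the DNA-binding protein Suppressor of Hairless (rbpj) and turns on repressors of the HES and HEY families together with the feedback inhibitor nrarp. In the neural plate and the epidermis of frog embryos, this pathway keeps cells from differentiating beside a neighbor that has already started, a process called lateral inhibition. The first neurons, the multiciliated cells and the ionocytes of the skin are all spaced or limited in number in this way, and Notch also divides the somites, the blocks of future muscle.

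At stage 38, 627 of the 15495 probe sets with a symbol differed between NICD and DBM embryos (limma with the replicate number as a block, adjusted p below 0.05; 4.05% of those with a symbol, while over all 32475 probe sets 3.22% passed, 0.995% higher and 2.23% lower). Of these, 184 were higher with NICD (1.19% of those with a symbol) and 443 were lower (2.86%), for 164 and 417 symbols. For genes called in this comparison, rose and fell mean higher and lower with NICD than with DBM, not a change from GFP embryos. The differences were modest, with a median size of 0.52 (log2) and a range of 0.30 to 1.70, and 37 reached 1 or more, 6 of them higher and 31 lower. All 627 had the same sign for each of the 3 replicate numbers, which the test within numbers that chose them nearly requires. For 459 the NICD and DBM arrays did not overlap at all. Over all probe sets with a symbol, 5.96% had every NICD array above every DBM array and 6.72% had every NICD array below. The count rested on the block, because arrays of the same replicate number deviated together from their group means. Without the block, 43 probe sets passed, all among the 627, and 32 of them were lower with NICD. With the block but without the arrays of replicate 1, 133 passed.

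**Figure D1:**
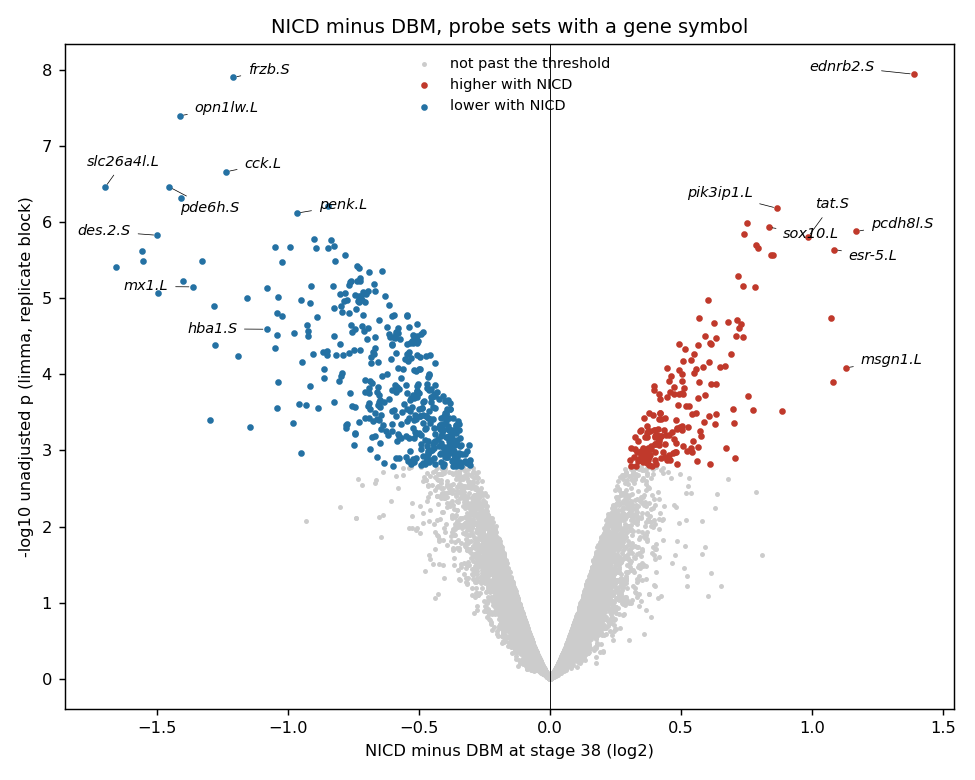
Each point is a probe set with a gene symbol, placed by its NICD minus DBM difference at stage 38 (x axis, log2) and its unadjusted p (y axis, -log10). The 184 higher (red) and 443 lower (blue) probe sets past the threshold are colored, and the largest differences lay on the lower side, down to -1.70.

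The injected constructs could not be read from the probe sets of their own genes. notch1.S had 9.16, 9.102 and 8.82 on the NICD arrays, against 8.66, 8.53 and 8.72 on the DBM arrays, a difference of 0.39 that did not pass (adjusted p = 0.107). The 3 probe sets of rbpj.S differed by -0.17, 0.04 and -0.01, none of them past the threshold. Whether these probes match the injected RNA is not given in the sources used here. In GFP embryos at stage 38 the hemoglobin gene hbe1.L was 5.46 (log2) and the fatty acid carrier fabp2.L 6.89 above stage 28. Array medians at stage 38 lay between 6.92 and 6.99.

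Several HES genes, which are direct targets of the pathway, were higher with NICD, while no hey or nrarp probe set passed. Of the 30 probe sets of this list, 12 rose and none fell, 28 had a positive difference, and the median was 0.34, against 0.00162 over all probe sets with a symbol. esr-5.L, a HES-related repressor expressed in the presomitic mesoderm, had 7.51, 7.18 and 7.17 in NICD embryos, against 6.21, 6.09 and 6.29 in DBM embryos and 6.40, 6.26 and 6.69 in GFP embryos. Every NICD array was thus above every DBM array, and the difference was 1.09 with a standard error of 0.11 (adjusted p = 0.00189), or 2.12-fold. Its other probe set differed by 0.61.

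Both copies of hes5.1 and of hes5.2, repressors of neuronal differentiation, rose as well. hes5.1.S had 9.30, 8.76 and 8.94 with NICD, against 8.48, 8.04 and 8.32 with DBM, a difference of 0.72 ± 0.08 (SE; adjusted p = 0.00267), and its GFP arrays, at 9.11, 8.43 and 8.88, stood closer to NICD. The lowest NICD array exceeded the highest DBM array, while the NICD and GFP arrays overlapped. hes5.1.L differed by 0.73, hes5.2.L by 0.61 and hes5.2.S by 0.55. In these 4 genes replicate 1 had the highest NICD value, and without the block none of the 4 passed (adjusted p = 0.335 for hes5.1.S, 0.209 for hes5.1.L, 0.470 for hes5.2.L and 0.440 for hes5.2.S).

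The somite clock genes hes7.1.L and hes7.2.L rose by 0.63 and 0.62 in 1 of 3 probe sets each, and hes4, hes5.5 and esr-5 made up the remaining calls. nrarp.S (0.28 and 0.33) and hey1.S (0.26 and 0.25) had positive differences that did not pass. Without the block, 1 of the 30 probe sets passed. Of 38 probe sets of the receptors, ligands and processing enzymes of the pathway, 1 rose (2.63%) and 2 fell (5.26%), with a median of 0.03. Over all with a symbol, 1.19% were called higher and 2.86% lower. The gene that rose was lfng.S, a glycosyltransferase that modifies Notch (0.46 ± 0.10, adjusted p = 0.0437). Both copies of dner, a neuronal Delta-like protein, fell: dner.L had 8.18, 7.97 and 7.80 with NICD, against 8.62, 8.56 and 8.34 with DBM, and its difference was -0.52 ± 0.07 (adjusted p = 0.00528). The NICD and DBM arrays did not overlap for dner.L, and dner.S differed by -0.46.

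Neural crest and pigment genes held the gene of lowest p among those higher with NICD. ednrb2.S, the endothelin receptor of pigment cell precursors, had 9.98, 9.65 and 9.92 with NICD, against 8.60, 8.36 and 8.42 with DBM and 8.85, 8.75 and 8.91 with GFP. The groups were well apart, the difference of 1.39 ± 0.08 (SE; adjusted p = 0.000201) being 2.62-fold, and it passed without the block too (adjusted p = 0.00527). Of the 48 probe sets on this list, 11 rose and none fell, with a median of 0.21. Without the block 3 of the 48 passed. In RNA from whole embryos, fewer cells of a type and less RNA per cell cannot be told apart.

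sox10.L, the transcription factor of migrating crest, glia and melanocytes, had 8.40, 8.26 and 8.38 with NICD, against 7.61, 7.27 and 7.67 with DBM, a difference of 0.84 ± 0.08 (adjusted p = 0.00186). All its NICD arrays lay above all its DBM arrays. Among pigment cell genes, the melanosome receptor gpr143.S differed by 0.75, the melanosome transporter slc45a2.L by 0.79 and mitf.L, the master regulator of melanocytes, by 0.39 in 1 of its 3 probe sets. The crest regulators snai2.L (0.59), foxd3.S (0.45), tfap2e.L (0.33) and pax3.S (0.70 and 0.49) also rose. The melanin enzyme gene tyrp1.L (0.18) and the melanosome matrix gene pmel.S (0.18) did not pass, nor did sox9.L (-0.20) or twist1.L (-0.02).

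The calls among neural progenitor genes were all higher with NICD, though most probe sets of the list did not pass. Of 68 progenitor probe sets, 8 rose (11.8%, against 1.19% over all with a symbol) and none fell (median 0.09). They were the 3 probe sets of sox2.L (0.35, 0.38 and 0.48), sox3.L (0.52), pax7.L (0.51) and pax3 on both copies, of which pax3 and pax7 are shared with the lists of crest and muscle precursors. sox3.L, a transcription factor that holds neural cells in the progenitor state, had 9.39, 9.07 and 9.04 with NICD, against 8.84, 8.42 and 8.68 with DBM, without overlap (0.52 ± 0.09, adjusted p = 0.0177). The retinal progenitor gene rax.S (-0.45) and the forebrain gene emx1.S (-0.26) pointed the other way without passing.

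The proneural and neuronal transcription factors showed no common direction. Of 51 probe sets, 2 rose (3.92%) and 3 fell (5.88%), against 1.19% and 2.86% over all with a symbol. The median was 0.07, and neurog2.S (0.25, 0.10 and 0.06), neurod1.S (-0.28) and neurod4.L (0.24) did not pass. Those that passed were small. mnx1.S, a motor neuron gene, rose by 0.39 in 1 of 3 probe sets, and evx1.L by 0.33. atoh7.L, which specifies retinal ganglion cells, differed by -0.31, and isl1.S by -0.46 in 1 of 2 probe sets. The other fall was stmn2.L, at -0.41 in 1 of 2 probe sets. It is a tubulin regulator, not a transcription factor, and stood on the axonal list as well. In the glial list sox10.L and the glutamine synthetase gene glul.S (0.43) rose. None of the other 9 of 11 probe sets passed, among them myrf.L (-0.64), glul.L (0.28) and mbp.L (-0.13).

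Among axonal and pan-neuronal genes, 16 of 50 probe sets fell and none rose, with a median of -0.15. nefm.S, a neurofilament subunit, had 8.41, 8.82 and 8.42 with NICD, against 9.37, 9.43 and 9.33 with DBM and 8.74, 8.97 and 8.69 with GFP. The NICD and DBM arrays stood far apart, at a difference of -0.83 ± 0.08 (adjusted p = 0.00186). Both copies of nefm, stmn3, stmn4, sncb and sncg, which encode neurofilament, stathmin and synuclein proteins, fell, as did uchl1.S (-0.84), an abundant neuronal ubiquitin hydrolase. The neuronal tubulin gene tubb3.L (-0.13), the growth cone gene gap43.L (-0.12) and elavl3.L (0.22) did not pass.

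Synaptic and neuropeptide genes fell in 21 of 44 probe sets with none rising, and the median was -0.34. cck.L, which encodes the peptide cholecystokinin, had 4.74, 5.05 and 4.86 with NICD, against 6.17, 6.05 and 6.15 with DBM and 5.21, 5.05 and 5.11 with GFP. The difference was -1.24 ± 0.09 (adjusted p = 0.0014), 2.36-fold lower with NICD, and the DBM arrays stood above both other groups. Other peptide genes that fell were penk.L (enkephalin, -0.97), tac1.L (substance P, -0.95), nts.S (neurotensin, -0.73) and both copies of pomc (-0.80 and -0.54). The vesicle genes snap25, syt4.L (-0.80), cplx1.L (-0.74) and rab3a.L (-0.60) fell too, while the vesicle genes vamp2.L (-0.29 and 0.06) and syt1.L (-0.09) and the GABA synthesis gene gad1.2.L (-0.38) did not pass. Without the block, 4 of the 50 axonal and 6 of the 44 synaptic probe sets passed.

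**Figure D2:**
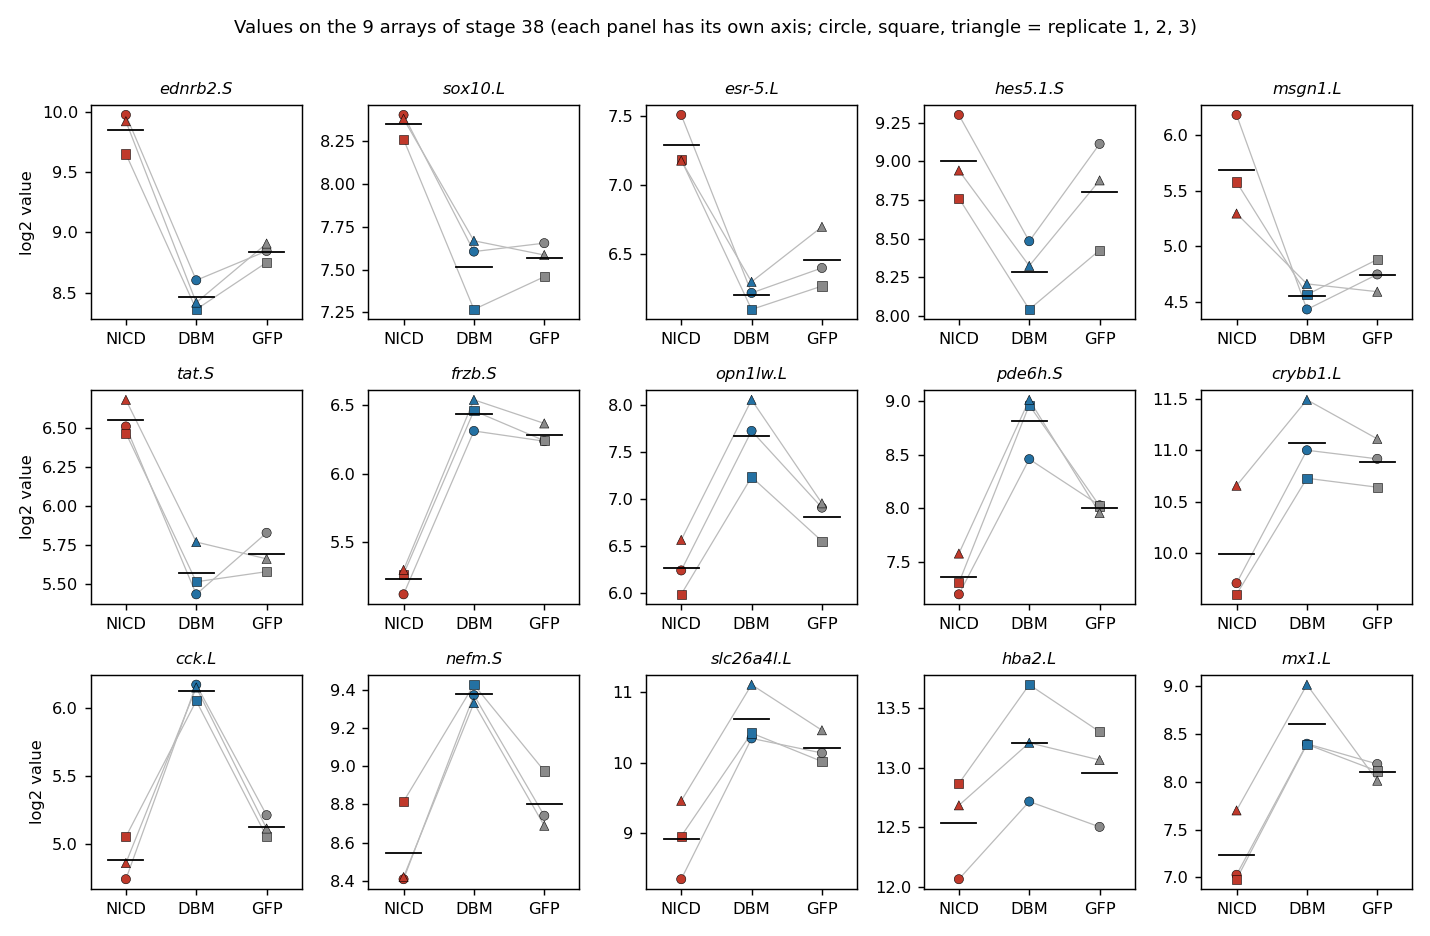
Log2 values (y axis, a separate scale in each panel) of 15 genes on the 9 arrays of stage 38, grouped as NICD, DBM and GFP along the x axis; the black bars are means of 3 arrays and grey lines join arrays of the same replicate number. Each NICD value lies on the same side of the DBM value of its replicate number, as for ednrb2.S, with 9.98, 9.65 and 9.92 against 8.60, 8.36 and 8.42.

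The eye list had the lowest median of the 29 lists. Of its 64 probe sets, 35 fell and none rose, the median was -0.58, and 28 had every NICD array below every DBM array. opn1lw.L, the red cone opsin, had 6.24, 5.98 and 6.56 with NICD, against 7.73, 7.23 and 8.06 with DBM and 6.91, 6.55 and 6.95 with GFP. The NICD and DBM arrays did not overlap, while the highest NICD array was just above the lowest GFP array, and the difference from DBM was -1.41 ± 0.09 (adjusted p = 0.000427), 2.66-fold lower with NICD. Its other, brighter probe set gave -1.56. Without the block 1 of the 64 probe sets passed, and opn1lw.L itself missed the threshold (adjusted p = 0.0566).

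Several genes of cones and rods fell. pde6h.S, the inhibitory subunit of cone phosphodiesterase, had 7.19, 7.302 and 7.58 with NICD, against 8.46, 8.96 and 9.01 with DBM (-1.45 ± 0.12, adjusted p = 0.0014). These arrays, too, were separate. The cone arrestin arr3.L (-1.33), the cone transducin gnat2.S (-1.28), the cyclase activator guca1a.L (-1.40), the short-wave opsin opn1sw.L (-1.05), the rod transducin gnat1.L (-0.85 and -0.75), the rod arrestin sag on both copies (-0.78 each) and the photoreceptor transcription factor crx on both copies all fell. rcvrn.2.L, a recoverin that was on no list, had 9.34, 9.59 and 9.45 with NICD, against 10.52, 10.46 and 10.55 with DBM, a difference of -1.05. The retinal pigment epithelium genes rpe65.L (-0.69) and rlbp1.L (-0.58, -0.42 and -0.42) fell, whereas the photoreceptor disk genes prph2.L (-0.26 and -0.18) and rom1.S (-0.26) did not pass.

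Several lens genes fell as well. crybb1.L, a lens beta crystallin, had 9.71, 9.60 and 10.66 with NICD, against 10.999, 10.73 and 11.49 with DBM and 10.92, 10.64 and 11.11 with GFP. All NICD arrays were below all DBM arrays (-1.08 ± 0.12, adjusted p = 0.0029; 0.300 without the block), and the GFP arrays overlapped with both. cryba1.L (-0.98), cryba2.S (-1.04), cryba4.S (-0.92), the filament gene bfsp1.L (-1.04), the water channel gene mip on both copies (-1.04 and -0.92) and lim2.L (-0.93) also fell. The lens regulators pitx3.S (-0.24), prox1.L (-0.04) and foxe3.L (0.01) did not pass, nor did cryaa.S (-0.44).

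The calls in the globin, liver and gut lists were falls of mostly smaller size, while the kidney list had calls in both directions. Of 33 globin and erythroid probe sets, 12 fell and none rose, with a median of -0.27. hba2.L, an alpha globin, had 12.06, 12.87 and 12.69 with NICD, against 12.72, 13.70 and 13.21 with DBM and 12.50, 13.30 and 13.07 with GFP. Replicate 1 was lowest in every group, the groups overlapped, and the difference within replicate numbers was -0.67 ± 0.08 (adjusted p = 0.00305). Without the block its adjusted p was 0.747, and 0 of the 33 probe sets passed. hba1.S, at a low level, differed by -1.08, hbe1.L by -0.59, the heme synthesis genes alas2.S and urod.L by -0.58 and -0.47, and lmo2.S, a blood stem cell regulator, by -0.50. gata1.L (-0.42) and tal1.S (-0.10 and -0.06), which drive the red cell program, did not pass.

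Of 41 endothelial and white blood cell probe sets only cxcr4.S, a chemokine receptor, passed, at 0.37. In the liver list 7 of 47 probe sets fell and none rose (median -0.19): 1 probe set of the lipoprotein gene apob.S (-0.71, with the other at -0.18), all 3 of the protease inhibitor serpina1 (-0.44, -0.37 and -0.38), vtn.L (-0.50), and the fibrinogen chains fgb.L (-0.40) and fgg.L (-0.54). The gut and pancreas list had 5 falls in 63 probe sets and a median of 0.04, namely both copies of fabp2 (-0.80 and -0.82), both copies of insulin (ins.S -0.67, ins.L -0.62) and the lipase pnlip.L (-0.49). Those 5 falls were 7.94% of the gut list. Of 53 kidney probe sets, 3 fell (5.66%) and 2 rose (3.77%), against 2.86% and 1.19% over all with a symbol. Those that fell were cdh16.L (-0.76, with its other probe set at -0.20), the sugar transporter slc5a11.L (-0.61) and atp1b2.S (-0.80). Both that rose were of atp1b2.L (0.37 and 0.40), so that the copies of this sodium pump subunit moved in opposite directions.

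The calls among epidermal ionocyte and cilium genes were mostly falls. Of 37 ionocyte probe sets, 6 fell and 1 rose, with a median of -0.13. Those that fell were the carbonic anhydrase ca2.L (-0.65), the anion exchanger slc4a1.L (-0.68, also a red cell protein) and the proton pump subunits atp6v1g3.L (-0.76), atp6v1b1.L (-0.69, with a second probe set at -0.59 not passing), atp6v0a4.L (-0.65) and atp6v0d2.L (-0.47). foxi2.S, a forkhead gene of the ectoderm, rose by 0.50. slc26a4l.L, which resembles the anion exchanger pendrin and stood on no list, had the largest difference of all called probe sets with a symbol: 8.35, 8.96 and 9.46 with NICD, against 10.34, 10.42 and 11.10 with DBM and 10.14, 10.02 and 10.46 with GFP. It was 3.25-fold lower with NICD, at -1.70 ± 0.14 (adjusted p = 0.0014; 0.0760 without the block). All NICD arrays were below all DBM and GFP arrays, and the DBM and GFP arrays overlapped.

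Of 55 cilium probe sets, 5 fell (9.09%, against 2.86% over all with a symbol) and none rose (median -0.15). tekt3.S, a tektin of ciliary microtubules, had 8.39, 9.09 and 9.48 with NICD, against 9.33, 9.74 and 10.26 with DBM and 9.59, 9.67 and 10.08 with GFP. The NICD and DBM arrays overlapped, and the difference within replicate numbers was -0.79 ± 0.12 (adjusted p = 0.00695). tekt3.L (-0.74), tekt2.L (-0.66), ropn1l.L (-0.59) and dnal1.L (-0.44) fell as well. The regulators of multiciliated cell fate mcidas.S (0.22), ccno.S (0.24) and foxj1.L (0.04) did not pass. Of 59 keratin and junction probe sets, krt70.L (0.48) and upk3a.L (0.36) rose and none fell, with a median of 0.12, and none of the 8 probe sets of small secretory cells passed.

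Several genes of the tailbud and of muscle precursors rose, though most probe sets of these lists did not pass. msgn1.L, which marks unsegmented presomitic mesoderm, had 6.18, 5.58 and 5.296 with NICD, against 4.43, 4.57 and 4.66 with DBM and 4.75, 4.88 and 4.59 with GFP. All NICD arrays exceeded all DBM arrays, by 1.13 ± 0.17 on average (adjusted p = 0.00866; 0.0869 without the block). The T-box gene tbxt.L (brachyury, 0.38), wnt8a.L (0.67), sp5l.S (0.46, with its 2 other probe sets at 0.63 and 0.21 not passing), hoxd13.S (0.38), spry1.S (0.42 in 1 of 2 probe sets), evx1.L (0.33) and dkk1.S (0.54 and 0.37) also rose, making 9 of 61 tailbud, Wnt and FGF probe sets, with a median of 0.10. On the same list both copies of frzb, a secreted Wnt antagonist, fell. frzb.S had 5.12, 5.27 and 5.297 with NICD, against 6.31, 6.46 and 6.54 with DBM and 6.24, 6.24 and 6.37 with GFP. All NICD arrays lay below all DBM and GFP arrays, and the difference was -1.21 ± 0.07 (adjusted p = 0.000201, and 0.00527 without the block).

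In the myogenic list, 6 of 32 probe sets rose: msgn1.L, pax7.L, tcf15.L (0.44) and 3 of pax3. The differentiation factor myog.S fell, at -0.52. Of 86 contractile and calcium handling probe sets, 4 fell and none rose (list median 0.02). Those 4 were 4.65% of the list, near the 2.86% called lower over all with a symbol. They were ocm3.S, a parvalbumin relative that binds calcium, at -1.41, pgam2.S at -0.51, myl3.L at -0.41 and acta1.S at -0.36. ocm3.S had 9.42, 9.096 and 9.19 with NICD, against 10.40, 10.75 and 10.78 with DBM, without overlap. Of 41 heart probe sets, 5 fell (12.2% of the list) and none rose. They were those of the transcription factors hand2.S (-0.49), hand1.L (-0.42), tbx5.L (-0.42) and isl1.S (-0.46) and of the hormone nppa.L (-0.52, with a second probe set at -0.41).

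In the notochord, cartilage and matrix list, 6 of 61 probe sets rose, among them mmp11.L (0.68), mmp14.L (0.41 in 1 of 2 probe sets) and fibronectin (fn1.S, 0.42 and 0.35 in 2 of 4), and 3 fell, with matn2.S, a matrilin of the matrix, at -0.85, matn2.L at -0.42 and the cartilage collagen col9a1.L at -0.39. Both calls among 43 probe sets of the BMP list were antagonists or modulators that rose, fst.L (0.47) and bmper.L (0.49). They were 4.65% of the list, against 1.19% called higher over all with a symbol.

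None of 113 cell cycle, 135 cytosolic ribosomal or 96 respiratory chain probe sets passed, and their medians were 0.04, 0.01 and -0.07. Of the 96 respiratory chain differences, however, only 15 were positive. Every NICD array was below every DBM array in 19 of these 96 and above in 2, against 6.72% and 5.96% over all with a symbol. In 60 stress and apoptosis probe sets, 4 rose, namely both of txnip.L (0.62 and 0.59), ddit4.S (0.49) and junb.L (0.58), and 2 fell, the heat shock gene hspb1.L (-0.95) and heme oxygenase hmox1.S (-0.45). Of 26 interferon and inflammation probe sets, socs3.S rose by 0.61 and mx1.L, an antiviral GTPase, fell. mx1.L had 7.03, 6.98 and 7.70 with NICD, against 8.40, 8.39 and 9.01 with DBM and 8.18, 8.11 and 8.01 with GFP, apart from each other at -1.36 ± 0.15 (adjusted p = 0.00286). eif2ak2.L, the RNA-activated kinase of the same response, which was on no list, differed by -0.90 and -0.55 while its arrays overlapped. Without the block, 0 probe sets passed in the progenitor, proneural, cilium, ionocyte, keratin, myogenic, heart, endothelial, liver, gut, kidney, BMP, stress and Notch pathway lists, and 1 each in the glia, muscle, matrix, tailbud and interferon lists.

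**Figure D3:**
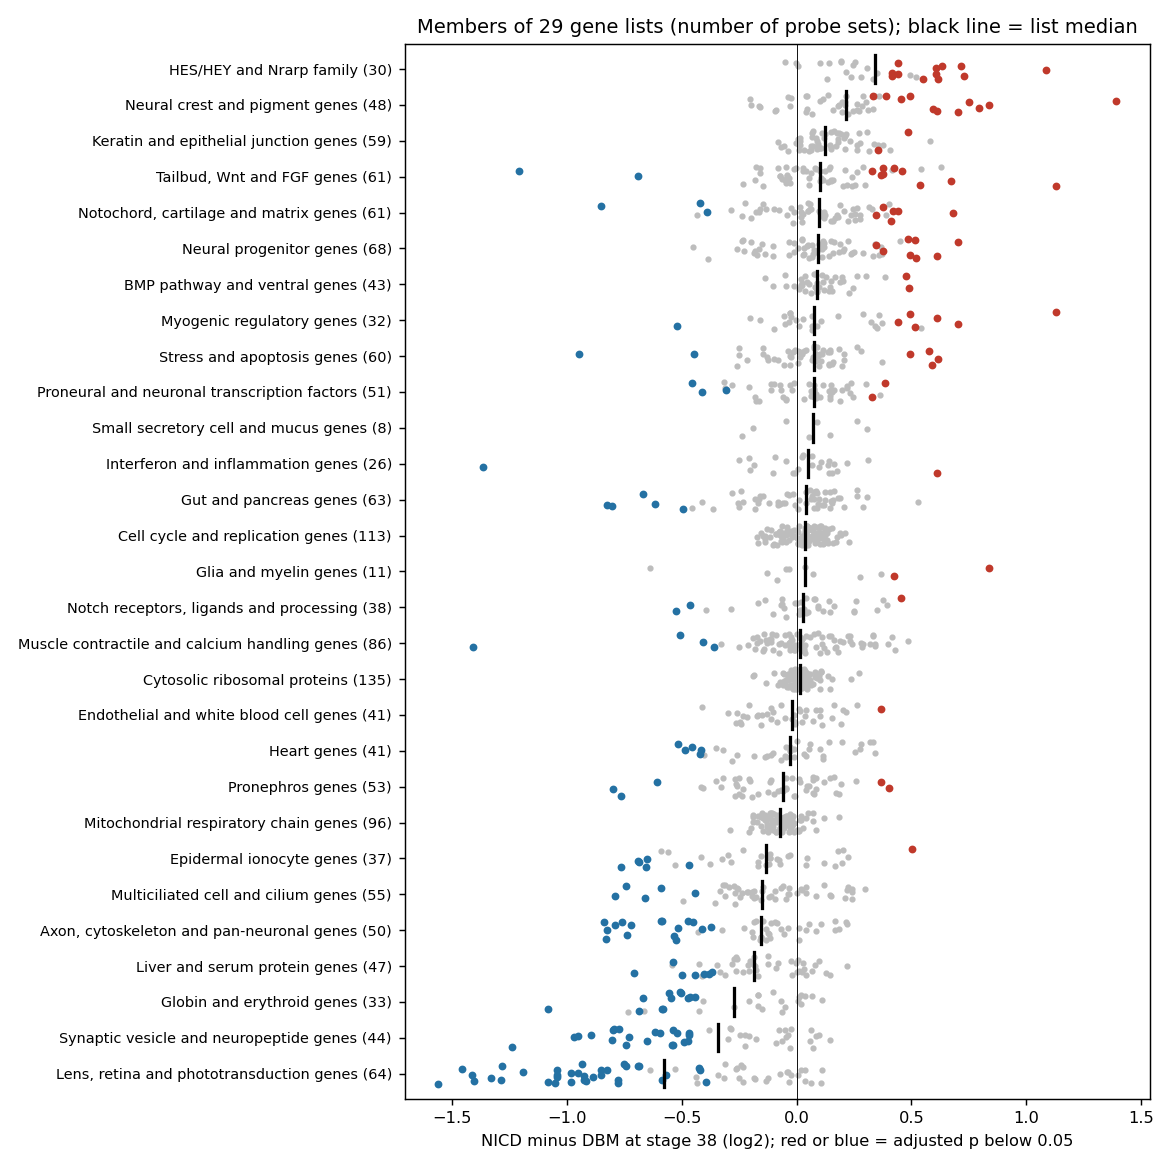
NICD minus DBM at stage 38 (x axis, log2) for each probe set of 29 gene lists, ordered by the list median (black line); red and blue points passed the threshold. The HES/HEY and Nrarp list is at the top with a median of 0.34, and the lens, retina and phototransduction list at the bottom with -0.58.

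The stage 38 difference was then set against the NICD minus DBM differences at stages 28 and 18, which come from other arrays. At stage 28, 1208 probe sets with a symbol passed (7.8% of those tested) and at stage 18, 302 did (1.95%; 0.871% higher and 1.08% lower). Of the 184 probe sets higher at stage 38, 69 were also called higher at stage 28 (37.5% of the 184 and 15.9% of the 433 called higher at stage 28), and 15 at stage 18. Of the 443 lower at stage 38, 225 were also called lower at stage 28 (50.8% of the 443 and 29% of the 775 called lower there), and 23 at stage 18. Over all probe sets with a symbol, 2.79% were higher and 5% lower at stage 28. Calls in the opposite direction at stage 28 numbered 1 of the 184 and 2 of the 443. A direct test of the change in the difference called 211 probe sets between stages 38 and 28 (1.36%), 91 of them more positive at stage 38 (0.587%) and 120 more negative (0.774%), and 368 between stages 38 and 18 (2.37%), 139 of them more positive (0.897%) and 229 more negative (1.48%). The counts fell to 9 and 30 without the block.

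The HES/HEY and Nrarp list had a positive median at all 3 stages. Its median was 0.46 at stage 18, 0.86 at stage 28 and 0.34 at stage 38, and 15, 22 and 12 of its 30 probe sets were called higher at these stages. At stage 28, 1 of the 30 was called lower. hes5.1.S differed by 2.72 at stage 18, 1.36 at stage 28 and 0.72 at stage 38. The stage 38 difference was smaller than that of stage 18 by -1.999 (adjusted p = 0.00015) and than that of stage 28 by -0.64 (adjusted p = 0.0285). hes5.2.L went the same way, with 2.49, 1.17 and 0.61 at the successive stages. Between stages 38 and 18 the test called 12 probe sets of the list more negative at stage 38 and 2 more positive. Between stages 38 and 28 it called 10 more negative at stage 38 and 0 more positive. In GFP embryos 24 of the 30 were lower at stage 38 than at stage 28.

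The crest and eye lists behaved in other ways. Crest and pigment genes had medians of -0.16 at stage 18, 0.15 at stage 28 and 0.21 at stage 38, with 14 of 48 probe sets more positive at stage 38 than at stage 18 and none more negative. snai2.L differed by -0.70 at stage 18 and 0.59 at stage 38 (change of 1.29, adjusted p = 0.00015), and sox10.L by -0.38, 0.87 and 0.84 at the successive stages. pcdh8l.S, a protocadherin of low level at stage 38, differed by -0.59, 0.18 and 1.17. The eye list stood at -0.06 at stage 18, -0.01 at stage 28 and -0.58 at stage 38. At stage 28, 11 of its 64 probe sets were already lower, such as crybb1.L (-1.35) and rcvrn.2.L (-0.91, not on the list), whereas opn1lw.L (0.16) and pde6h.S (-0.03) did not pass there, and 15 of the 64 were more negative at stage 38 than at stage 28. In GFP embryos, 52 of these 64 were higher at stage 38 than at stage 28.

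Neuronal lists were lower at stage 28 too. Axonal genes had medians of -0.12, -0.46 and -0.15 at stages 18, 28 and 38, and 14 of 50 were more positive at stage 38 than at stage 28, among them gap43.L, which differed by -0.98 at stage 28 and -0.12 at stage 38 (change of 0.86, adjusted p = 0.00148). nefm.S differed by -1.59 at stage 28 and -0.83 at stage 38. Ionocyte genes had a median of -0.53 and 22 of 37 probe sets lower at stage 28, against 6 at stage 38, and cilium genes had 15, 29 and 5 of 55 lower at the successive stages, but only 1 ionocyte and 1 cilium probe set differed between stages 38 and 28 in the direct test. Among globins, hbe1.L and hbd.S differed by -1.46 and -2.13 at stage 28, and by -0.59 and -0.51 at stage 38 (adjusted p = 0.00148 and 0.0077 for the changes). hba1.S went the other way, with 0.004 at stage 28 and -1.08 at stage 38 (change of -1.09, adjusted p = 0.0197). Of the 33 globin and erythroid probe sets, 4 were more positive and 1 more negative at stage 38 than at stage 28.

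**Figure D4:**
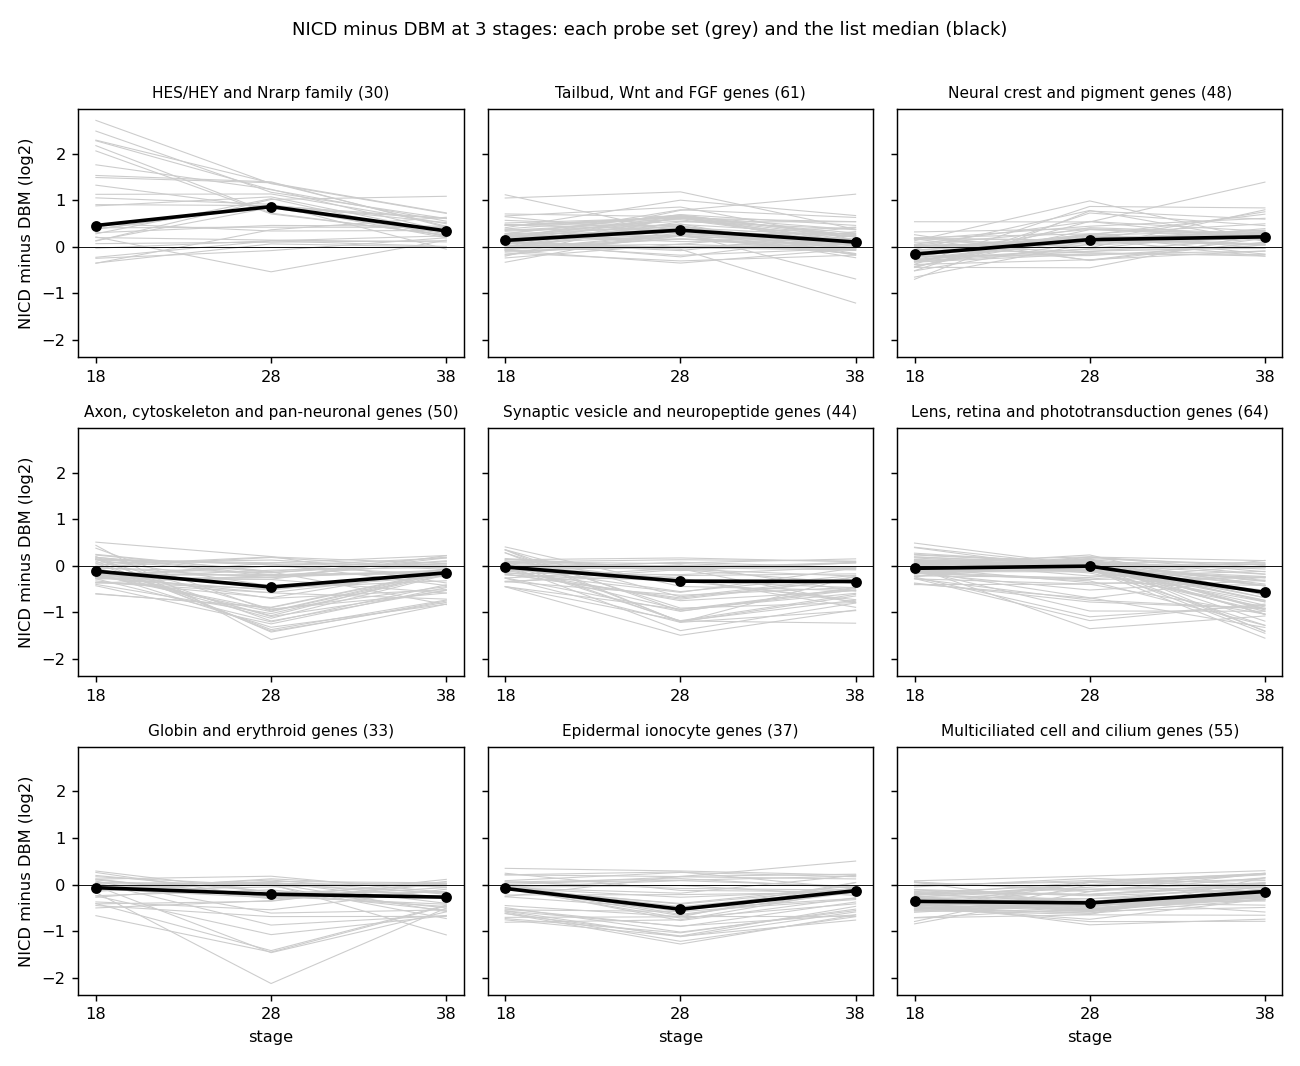
NICD minus DBM (y axis, log2) at stages 18, 28 and 38 (x axis) for the probe sets of 9 gene lists (grey lines) with the list median (black). The HES/HEY and Nrarp median was 0.46, 0.86 and 0.34 at the successive stages, and the eye list median was -0.06, -0.01 and -0.58. At stage 28, 11 of the 64 eye probe sets were already called lower.

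The called genes also differed in how they changed with age in GFP embryos, whose arrays do not enter the size of the NICD minus DBM difference, though they share in the estimate of its error. Of the 443 probe sets lower with NICD, 343 (77.4%) were higher in GFP embryos at stage 38 than at stage 28 and 74 (16.7%) were lower, with a median change of 1.24 (log2). Of the 184 higher with NICD, 47 (25.5%) were higher at stage 38 and 102 (55.4%) were lower, with a median of -0.35. Over all probe sets with a symbol, 30.6% were higher and 33% were lower. Among the 122 that were higher by more than 3 (log2) in GFP embryos, 61 (50%) were lower with NICD and none was higher, and the median difference was -0.43. Among the 97 that were lower by 2 or more, 13 (13.4%) were higher with NICD, 3 were lower, and the median was 0.14. At a change of 2 to 3, 62 of 193 were lower with NICD.

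**Figure D5:**
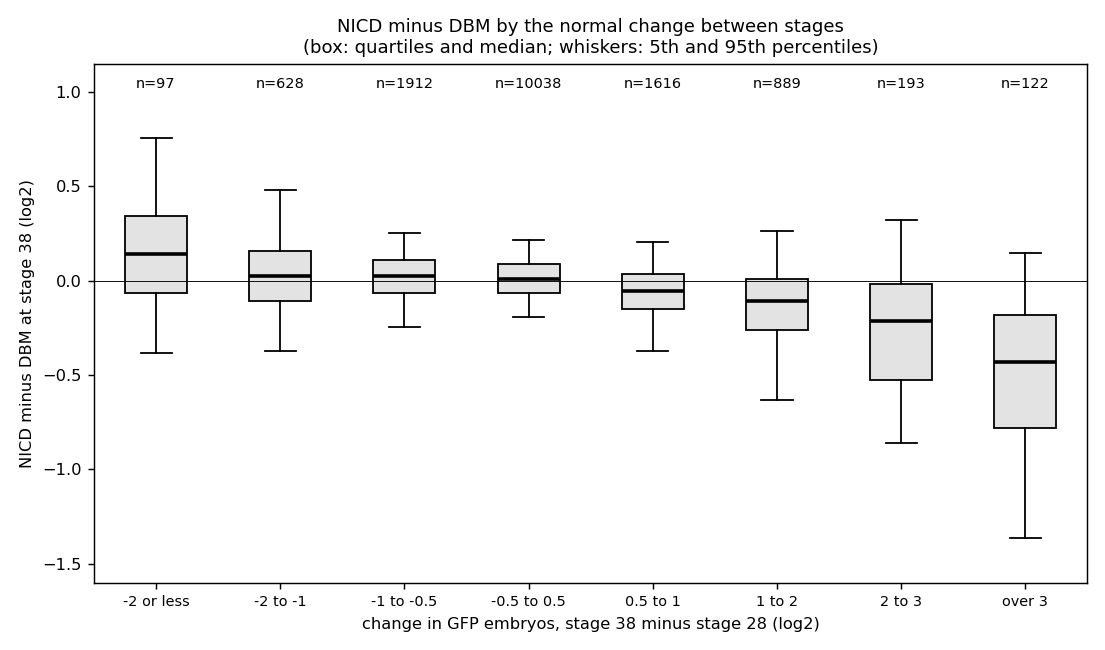
NICD minus DBM at stage 38 (y axis, log2) for probe sets with a symbol, binned by their change in GFP embryos from stage 28 to stage 38 (x axis, log2); n is the number of probe sets. The median was 0.14 in the bin of the largest decrease and -0.43 in the bin of the largest increase.

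Against GFP embryos, which both constructs share as control, NICD differed in 201 probe sets (1.3%), 84 higher (0.542%) and 117 lower (0.755%), and DBM in 9 (0.0581%), all higher. The 9 were opn1lw.L, cck.L, ocm3.S, matn2.S, crhbp.S, stmn4.S, nts.S, grik5-like.1.L and tnfrsf12a.L. The other, brighter probe set of opn1lw.L had DBM 0.89 above GFP and did not pass (adjusted p = 0.139). For cck.L, DBM stood 0.995 above GFP (adjusted p = 0.0242) and NICD -0.24 from it (adjusted p = 0.371). For frzb.S the order was the reverse, with NICD -1.05 from GFP (adjusted p = 0.0014) and DBM 0.15 (adjusted p = 0.62). For ednrb2.S NICD was 1.015 above GFP (adjusted p = 0.0022) and DBM -0.37 from it (adjusted p = 0.23). Medians of the eye list were -0.48 for NICD minus GFP and 0.12 for DBM minus GFP, those of the synaptic list -0.12 and 0.26, and those of the HES/HEY and Nrarp list 0.20 and -0.15. In the eye list, 14 of 64 probe sets were called lower with NICD than with GFP and 1 higher with DBM. Of the 44 synaptic probe sets, 0 were called lower with NICD than with GFP and 3 higher with DBM. Of the 30 HES/HEY and Nrarp probe sets, 1 was called higher with NICD than with GFP and 0 lower with DBM.

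GFP embryos departed from the midpoint of NICD and DBM in 3 probe sets (0.0194%). The collagenase mmp8.L had a mean of 5.58 with NICD, 4.89 with DBM and 4.42 with GFP, and tnfrsf12a.L, a cytokine receptor, had means of 7.67, 7.88 and 7.097 in the same order. For astl2e.2.L, an astacin-like protease, the means were 7.32, 7.45 and 8.02, and NICD was below GFP (adjusted p = 0.00878) while DBM minus GFP did not pass (adjusted p = 0.0745). Without the block none of the 3 passed.

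Among called genes, homeologous copies mostly had differences of the same sign. Both copies had a probe set for 2009 genes, and of these 50 had a call on both copies, 49 of them in the same direction. In another 120 genes only 1 copy was called, and in 107 of them the other copy had a difference of the same sign. Each copy was taken by its probe set of lowest p. The share with the same sign was not counted over all 2009 genes, nor over all symbols with more than 1 probe set. The counts of this paragraph therefore do not set called genes apart from others. Cross-hybridisation between copies, which could make them alike, was not tested. Where a called symbol had more than 1 probe set (132 symbols), all of its probe sets had 1 sign in 104 and all were called in 31.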

How the data were processed

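RNA of 27 pools of embryos was hybridised to Affymetrix Xenopus laevis arrays. The values deposited by the authors were log2 signals summarised by RMA, which corrects background, applies quantile normalization and combines the probes of a set. They were used as deposited. RMA makes array distributions alike, so that a shift common to most genes cannot be seen. A second deposited table held 27 columns of array values that were not used, and columns of the authors' own p-values, which were neither used nor compared. The submitters' notes name limma. Arrays have no read depth, and 3 arrays a group limit the precision.

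The 160 control probe sets were left out, and 32475 were tested. Symbols came from the platform annotation, of which 15384 entries matched a RefSeq gene (assembly Xenopus_laevis_v10.1, used for names alone). A single symbol was found for 15495 probe sets, more than 1 gene for 279 and no symbol for 16701. Of the probe sets with no symbol or several genes, 410 and 9 passed the threshold in the main comparison and were not described. Copies share much sequence, and cross-hybridisation between .L and .S probe sets was not tested.

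A linear model with 3 groups and the replicate number as a block was fitted to the 9 arrays of stage 38 (R 4.3.3, limma 3.58.1, lmFit and eBayes), with p-values adjusted by Benjamini-Hochberg over all 32475 probe sets. Tests of the difference between stages used 18 arrays, 6 groups and a block within each stage. Groups and numbers came from the array titles, which do not say that a number marks a shared clutch. The numbers were taken as pairs because deviations from group means correlated at 0.679 to 0.776 in the 9 pairs with the same number. The 18 pairs with different numbers had -0.423 to -0.291. Deviations cancel out within each group, so these negative values follow from the positive ones and add no separate evidence. The labels call the arrays biological replicates of pooled embryos and name no parents. The block removes the shift that arrays of the same number share. The p-values thus measure the spread between pools that remains within replicate numbers. Data for the main comparison were simulated on 32475 probe sets, with real replicate deviations kept and normal errors drawn independently for each probe set. The fit with the block found 89.5% of 200 planted changes of 0.5 (log2) and 100% of those of 1 and 2. It made 45 false calls. Without the block, 22% of the changes of 0.5 were found, with 1 false call. The simulation takes the block as right, so it cannot test the block or errors shared between probe sets.

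The comparison, its 29 gene lists and the rule for named genes were chosen with earlier results of these data known. Named were the 15 symbols of lowest p in each direction, up to 5 of each list, up to 6 symbols per test between stages, and the genes of the constructs; other list members, and genes said to be on no list or outside this rule, were chosen after their values were seen. Lists are described by counts and medians, without a test. Alternatives were the fit without the block, other sets of arrays, leaving out arrays, dropping the dimmest 40% of probe sets, renormalization, array weights, a trended and robust variance, and other adjustments of p.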

Additional observations from a re-analysis of the deposited data

Results flagged for a closer look

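Among the 30 genes of lowest p and those named from the tests between stages, the NICD minus DBM difference at stage 38 departed from that of an earlier stage in the following. All values are the stage 38 difference minus the earlier difference (log2), from the interaction term of the limma fit, each at an adjusted p below 0.05.

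Against stage 28, the difference was more negative at stage 38 for mx1.L (-1.96), opn1lw.L (-1.57), pde6h.S (-1.42), des.2.S (-1.38), eif2ak2.L (-1.27), frzb.S (-1.16), calb1.S (-0.76), uchl1.S (-0.70), hes5.1.S (-0.64) and crhbp.S (-0.63). It was more positive for tat.S (1.03), pcdh8l.S (0.99), hbe1.L (0.88), ednrb2.S (0.86), gap43.L (0.86), slc45a2.L (0.82) and nefm.S (0.76). The genes of the eye among them, opn1lw.L and pde6h.S, did not differ past the threshold at stage 28. In GFP embryos opn1lw.L was 2.21 (log2) and pde6h.S 4.31 lower at stage 28 than at stage 38. For mx1.L and des.2.S the GFP level was lower at stage 28 by 4.04 and 3.02. In the fit of stage 28, mx1.L was higher with NICD (0.60, adjusted p = 0.0105), opposite to its direction at stage 38. des.2.S did not pass there (-0.12). Whether low levels at stage 28 limited the differences there was not tested.

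Against stage 18, the difference was more negative at stage 38 for hes5.1.S (-1.999), ambp.L (-1.93 in 1 of its 2 probe sets), hes5.2.L (-1.88), mx1.L (-1.63), pde6h.S (-1.62), slc3a1.L (-1.51), frzb.S (-1.32), cck.L (-1.28), des.2.S (-1.27) and nefm.S (-1.26). The same held for opn1lw.L (-1.18), uchl1.S (-1.06), rcvrn.2.L (-0.93), ocm3.S (-0.91), crhbp.S (-0.88), calb1.S (-0.85), matn2.S (-0.82) and eif2ak2.L (-0.76). It was more positive for ankrd37.L (2.51), pcdh8l.S (1.76), glul-like.1.L (1.35), snai2.L (1.29), sox10.L (1.21), pcdh8.2.L (1.14), tat.S (0.97) and esr-5.L (0.96). The same held for gpr143.S (0.82), pik3ip1.L (0.82), gpx3.S (0.76), pdk4.S (0.71), slc45a2.L (0.62) and ptgds.S (0.55).

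ankrd37.L, known in mammals as a gene induced by low oxygen, differed by -1.74 at stage 18, 1.54 at stage 28 and 0.78 at stage 38. hes5.1.S and hes5.2.L passed with a positive difference at every stage. That probe set of ambp.L, a serum protein gene, differed by 1.95, 0.06 and 0.02 at the successive stages, and slc3a1.L, an amino acid transporter subunit, by 1.18, 0.28 and -0.33, and for both only the stage 18 difference passed. With 3 arrays a group, no search for single outlying arrays was made.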

How the results depend on the processing

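All 627 probe sets kept the sign of their difference under each alternative of the main comparison in which they were tested. Under many alternatives the sign could not turn. Dropping the block, fitting 6 or 27 arrays, or changing the variance or the adjustment of p leaves the difference itself unchanged. All 627 had 1 sign over the replicate numbers, so leaving out a number could not reverse them either. The number called did change. It was 43 with no replicate block, 133 with all 27 arrays and no block, and 97 with Benjamini-Yekutieli adjustment, and leaving out arrays gave 133 to 402. Without replicate 1, 133 passed, without replicate 2, 193, and without replicate 3, 346. Leaving out single arrays gave 193 (NICD replicate 1), 398 (NICD replicate 2), 402 (NICD replicate 3), 207 (DBM replicate 1), 326 (DBM replicate 2) and 296 (DBM replicate 3). The remaining alternatives gave 507 to 918 calls. Of the 30 genes of lowest p, 17 passed without the block, where adjusted p ranged from 0.00527 to 0.711, and without replicate 1 only pdk4.S was lost. The probe set of ambp.L at -0.08, which had not passed, turned to 0.0524 without replicate 2 and 0.0753 without NICD replicate 2, and was -0.179 without replicate 3.

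The 3 departures of GFP from the midpoint became 0 without the block or without any replicate number, 11 with all arrays and the block, 8 without dim probe sets and 32 with a trended and robust variance. Differences between stages numbered 9 (stage 28) and 30 (stage 18) without the block, and 57 to 108 and 102 to 168 without a replicate number of stage 38.

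The list medians given here moved by more than their spread over replicate numbers. Leaving out a replicate number gave 0.0266 to 0.0823 for proneural factors, -0.177 to -0.143 for ionocytes, -0.0666 to -0.0210 for endothelium and white blood cells, -0.0907 to -0.0348 for pronephros, -0.0544 to 0.0477 for gut and pancreas, 0.0784 to 0.133 for tailbud, -0.0790 to -0.0620 for the respiratory chain, 0.0298 to 0.0609 for stress and 0.0256 to 0.0910 for interferon. With 1 probe set per symbol, medians were -0.23 for ionocytes, -0.0488 for heart, -0.46 for globins, -0.0582 for endothelium and white blood cells, -0.0680 for pronephros and 0.0149 for stress. Calls in the eye list numbered 20, 12 and 32 without replicate 1, 2 and 3, those in the HES/HEY and Nrarp list 3, 4 and 11, and those in the synaptic list 7, 14 and 15. The cause of these changes was not tested.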

Other observations

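Several groups of called genes lay outside the lists and were picked after their values were seen, so they are given as values alone. pik3ip1.L, an inhibitor of PI3 kinase, had 8.99, 9.09 and 9.03 with NICD, against 7.98, 8.37 and 8.15 with DBM and 8.03, 8.35 and 8.17 with GFP, and so was separate from both (0.87 above DBM, adjusted p = 0.00151). Other genes known in mammals to respond to glucocorticoids or to fasting were higher with NICD as well: pdk4.S (0.60 and 0.57), sgk1.L (0.71), tsc22d3.S (0.47), tat.S (0.99) and glul-like.1.L (0.85 and 0.78). Genes of retinoic acid handling moved in both directions, with cyp26c1.S (0.71 and 0.53) and crabp2.L (0.63) higher and aldh1a2.L (-0.42), rdh5.L (-0.36) and rbp2.L (-0.85) lower.

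Among Hox genes, 4 calls outside the lists were higher with NICD, hoxc10.L by 0.57, hoxd10.L by 0.49, hoxc12.L by 0.46 and hoxd11.L by 0.40. The Hox probe sets tested were not counted. No share can thus be set beside the 1.19% called higher over all with a symbol, and these 4 are no result about Hox genes. Both copies of foxf1, a regulator of gut mesoderm, were lower (foxf1.L -0.73, foxf1.S -0.93), as were both copies of cav1 (-0.49 and -0.36) and cav2 (-0.67 and -0.54), which coat caveolae. Of the matrix metalloproteinase genes, some were higher, mmp1.S by 1.08, mmp8.L by 0.69, mmp8.S by 0.88 and mmp3.L by 0.50, whereas mmp9.1.S was lower (-0.52). des.2.S, a desmin-related filament gene, differed by -1.50, with 6.03, 7.38 and 7.63 with NICD, against 7.70, 9.09 and 8.75 with DBM, and replicate 1 was the lowest in both groups.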
